A study of Arabidopsis thaliana with 12 samples.

Results

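To induce the C-terminal part of CPR5 in mature leaves of Arabidopsis thaliana, plants of the Dex:YFP-CPR5-C line were sprayed with 50 µM dexamethasone, and 3 arrays of these leaves were compared with 3 arrays of the same line sprayed with water. These are 6 of the 12 ATH1 arrays of the series, chosen by their labels, and all 22746 probe sets that are not controls were compared. The line is in the Col-0 background and carries the CPR5 fragment fused to YFP behind a promoter that dexamethasone switches on, so the water plants carry the same transgene. The series' design treats the fragment as dominant negative over the native protein. All plants were 4 weeks old, had been kept on soil with 12 hours of light a day at 22 °C, and were sampled 24 hours after the spray. The labels call the replicates biological but do not give the number of plants pooled, the number of independent lines or the cells in which the promoter is active. The other 6 arrays are wild-type Col-0 leaves with 50 µM dexamethasone or with water, 3 of each, and are set beside as the same spray without the transgene. The water groups of the genotypes were not compared with each other.

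CPR5 sits in the membrane of the nuclear pore. Plants that lack it are known for spontaneous lesions, constitutive defence, early leaf senescence and abnormal trichomes. Dexamethasone is an animal glucocorticoid used in plants as a chemical switch. Mature leaves export sugar made in their chloroplasts, and in senescence or shortage they dismantle chloroplasts and burn amino acids and lipids in mitochondria and peroxisomes instead.

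The deposited values are log2 signals centred on the median of each probe set over the 12 arrays, so a value near 0 is a typical array for that probe set and no value is an absolute level. Every change below is the mean of the 3 CPR5-C dexamethasone arrays minus the mean of the 3 CPR5-C water arrays on the log2 scale, with the standard error of a limma fit across all probe sets and a Benjamini-Hochberg adjusted p. Calls are at adjusted p under 0.05. No probe set was named for CPR5, so the transcript of the fragment is not analysed here. Centring also means that the leaf label could not be checked by which markers are present. Of 7 probe sets for root, pollen, flower and seed markers, 0 rose and 1 fell. Values on an array spread most in the dexamethasone group, with an SD of 0.68 to 0.69 over all probe sets against 0.13 to 0.14 in the water group. The poly-A spikes, which are added to the RNA in fixed amounts, averaged -0.46, -0.59 and -0.09 on the dexamethasone arrays, and 0.08, 0.07 and -0.05 on the water arrays. Scaling to these spikes shifted the median change of all probe sets by 0.41 upwards, so a fall smaller than that changes sign under it, and whether the leaves held more or less messenger RNA in all was not tested. The 3′ minus 5′ signal of the actin control was 0.22, 0.12 and 0.22 on the dexamethasone arrays and -0.11, 0.01 and -0.07 on the water arrays. The ubiquitin control went the other way, at -0.20, -0.16 and -0.11 with dexamethasone and 0.03, 0.03 and -0.07 with water. The GAPDH control overlapped, at -0.04, -0.22 and -0.15 with dexamethasone and -0.07, 0.14 and -0.11 with water. The part of RNA quality in the results was not tested.

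Dexamethasone changed a large share of the measured transcripts in CPR5-C leaves. Of the 22746 tested, 10895 (47.9%) were called, 5304 higher (23.3%) and 5591 lower (24.6%). These counts turned on the scaling of the arrays: scaling to the spikes gave 13356 higher and 1856 lower. Quantile normalization of the centred values, which forces the same distribution on every array, gave 2879 higher and 2678 lower. That step narrows the wider dexamethasone arrays by construction, so its lower counts are no separate test of the scaling. Most changes were modest: 1211 probe sets rose by at least 1 (5.32%) and 1230 fell by at least 1 (5.41%). The largest changes were mostly rises. By at least 2, 334 rose and 258 fell; by at least 4, 54 rose and 13 fell; and by at least 5, 23 rose and 2 fell. All of the changes of at least 2 had dexamethasone and water arrays that did not overlap. So did nearly all calls of any size, 5185 of the 5304 rises and 5458 of the 5591 falls. The calls rest on these same arrays, so the lack of overlap is no added support. Its share over all probe sets was not counted. The falls differed more among dexamethasone replicates than the rises did: replicate 3 was the lowest of the 3 in 173 of the 258 large falls, which averaged -2.36, -2.45 and -2.73 on the 3 arrays, while the 334 large rises averaged 3.08, 3.0 and 2.97. Wild-type leaves gave 2065 calls (9.08%) for the same spray, of which 33 rose (0.145%) and 172 fell (0.756%) by at least 1. The change differed between the genotypes for 8755 probe sets (38.5%).

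**Figure D1:**
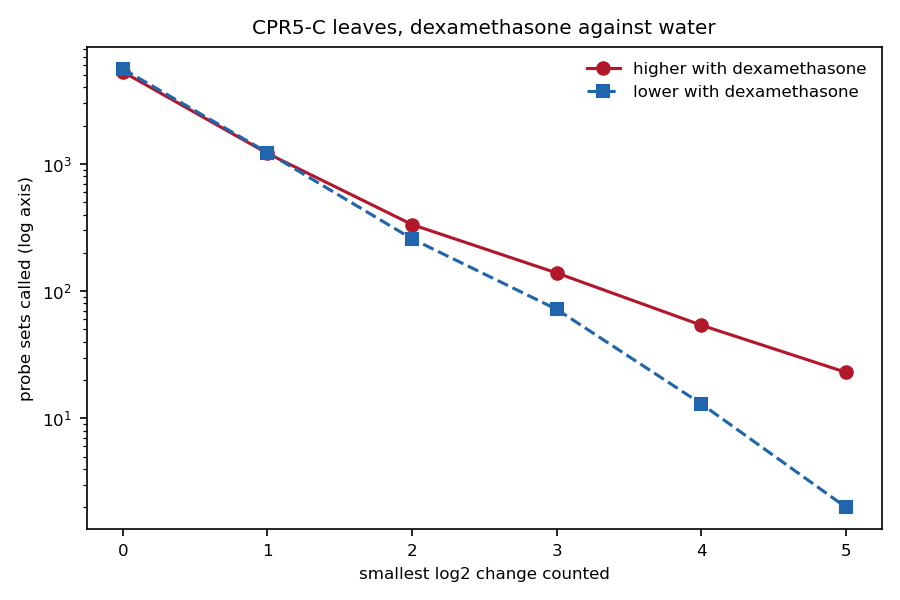
Number of probe sets called in CPR5-C leaves with dexamethasone against water, by the smallest log2 change counted (x axis, 0 to 5), on a log y axis, with rises and falls as separate lines. The lines cross: falls outnumber rises slightly at 0 and at 1, and at 5 there were 23 rises and 2 falls.

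The largest rise was that of BGLU45, a beta-glucosidase that releases the alcohols from which lignin is made. Its values were 8.60, 8.61 and 8.47 with dexamethasone, against 0.23, 0.14 and -0.01 with water. The 3 dexamethasone arrays stood far above every water array and close to each other. The change was 8.44 ± 0.08, or 347-fold (adjusted p = 1.8e-17). XTH19, which cuts and rejoins xyloglucan in the cell wall, had 6.10, 5.92 and 5.77 with dexamethasone, against -0.59, -0.29 and -0.71 with water. SAG29, a senescence-associated sucrose exporter of the SWEET family, had 6.51, 6.20 and 6.37, against -0.16, -0.01 and 0.01 with water. The changes were 6.46 ± 0.21 (adjusted p = 7.7e-12) for XTH19 and 6.42 ± 0.14 (adjusted p = 1.4e-13) for SAG29. In wild-type leaves BGLU45, XTH19 and SAG29 changed by 0.03, 0.31 and 0.15, none of them called. SAG29 stood apart from its senescence list. Of 6 probe sets for senescence and chlorophyll breakdown 4 rose and 2 fell, with a median of 0.36, and only SAG29 changed by at least 1. Genes taken for the size of their change had to have arrays without overlap, so their separation from water is no added support.

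Further rises of the same order belonged to a transcription factor, a defensin-like gene and loci without a name in the annotation. MYBC1, a MYB-type transcription factor, had 5.01, 4.98 and 5.12 with dexamethasone, against 0.01, -0.02 and 0.18 with water, a change of 4.98 ± 0.09 (adjusted p = 4.4e-14). LCR69, which encodes a small cysteine-rich defensin-like protein, had 4.05, 4.19 and 4.25, against -0.57, -0.56 and -0.99 with water, a change of 4.87 ± 0.12 (adjusted p = 5.5e-13). Both were tight among replicates. AT4G23680 rose by 6.96 ± 0.11, AT1G10585 by 5.13 ± 0.19 and AT1G16850 by 5.09 ± 0.12. AT3G58060 rose by 4.95 ± 0.08 and AT1G15010 by 4.76 ± 0.22. AT3G02480 rose by 4.25 ± 0.26 with a wider spread, at 5.05, 4.38 and 3.39 with dexamethasone against 0.06, 0.01 and 0.00 with water. AT5G50915 was opposite to the wild type: it rose by 4.27 ± 0.13 in CPR5-C leaves and fell by 1.07 in wild-type leaves (adjusted p = 5.6e-05).

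The largest falls belonged to unnamed loci, a glucosinolate enzyme and a stomatal peptide. AT5G48490 had -3.97, -5.66 and -5.88 with dexamethasone, against 0.10, 0.35 and 0.07 with water, a change of -5.34 ± 0.35 (adjusted p = 9.4e-09). AT1G13650 had -3.88, -5.35 and -6.01, against 0.02, 0.02 and 0.05, a change of -5.11 ± 0.35 (adjusted p = 1.2e-08). In both, dexamethasone replicate 1 was the least reduced and all 3 lay well below water. STOMAGEN, a peptide from the leaf interior that promotes stomata, was also least reduced in replicate 1, at -3.00, -3.79 and -4.51 with dexamethasone, against -0.01, -0.04 and -0.20 with water, a change of -3.69 ± 0.25 (adjusted p = 1.0e-08). In whole leaves, fewer cells of a type and less RNA per cell cannot be told apart. AT1G68600 also went opposite ways in the genotypes, at -3.45 ± 0.21 in CPR5-C leaves and 1.01 in wild-type leaves (adjusted p = 0.0062). AT4G37240 fell in both genotypes, by 3.11 ± 0.16 in CPR5-C leaves, and it fell by 2.74 in wild-type leaves, and the difference of -0.37 ± 0.23 was not called (adjusted p = 0.24). Neighbours on chromosome 2 fell together, with AT2G29290 at -3.42 ± 0.10, AT2G29300 at -3.05 ± 0.08, AT2G29310 at -3.06 ± 0.12 and AT2G29320 at -2.58 ± 0.09. They were among 8 pairs of adjacent loci, of 5845 pairs with both loci measured, in which both members changed by at least 2, and in all 8 the members moved the same way. Such neighbours are often sequence copies, and how far one copy's RNA binds the other's probes was not tested.

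**Figure D2:**
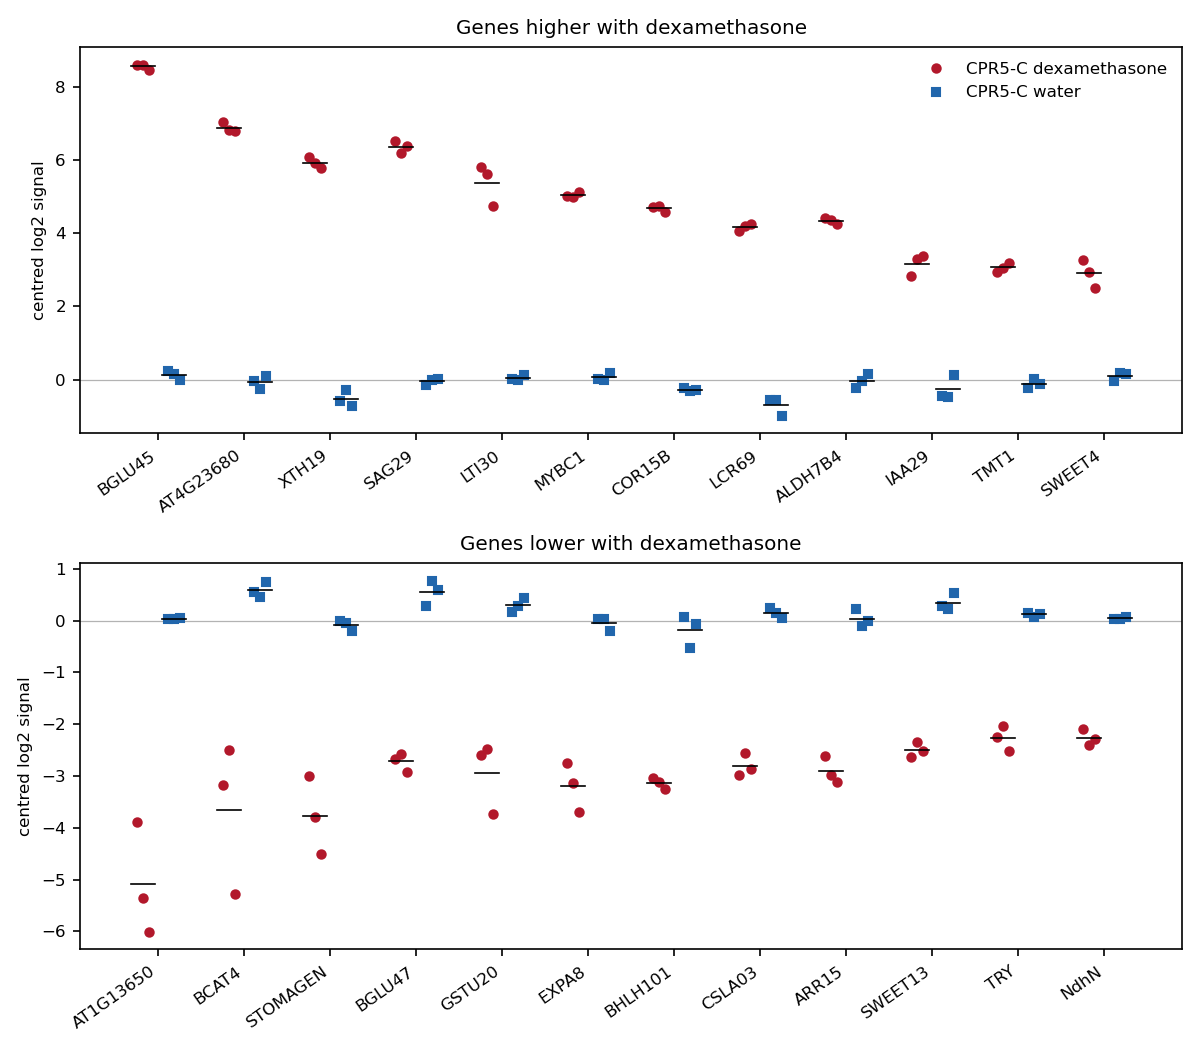
Centred log2 values (y axis) on each CPR5-C array for 12 genes that rose (upper panel) and 12 that fell (lower panel), with dexamethasone arrays in red on the left of each gene and water arrays in blue on the right; short lines are group means. BGLU45 stands near 8.5 on all dexamethasone arrays, and BCAT4, STOMAGEN and AT1G13650 show the widest spread among dexamethasone replicates.

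Genes of water shortage and cold rose strongly, but the set was mixed. Of 11 probe sets for genes that respond to abscisic acid, cold or dehydration, 8 rose, 1 fell and 2 were not called, with a median change of 0.68 against -0.02 for all probe sets. The dehydrin LTI30 had 5.81, 5.62 and 4.73 with dexamethasone, against 0.02, -0.02 and 0.11 with water, a change of 5.35 ± 0.20 (adjusted p = 2.5e-11). The lowest dexamethasone array was still far above water. COR15B and COR15A, adjacent copies that encode protective proteins of the chloroplast stroma, rose by 4.96 ± 0.09 and 4.38 ± 0.15; part of either signal may come from the other copy, which was not tested. COR47, another dehydrin, rose by 3.71 ± 0.11, while it fell by 0.46 in wild-type leaves (adjusted p = 0.018). LEA4-5, a late embryogenesis abundant protein, rose by 3.17 ± 0.22. The remaining rises were small, such as 0.68 ± 0.07 for AT2G44060 (LEA26), and HVA22C fell by 0.62 ± 0.09. EEL, a bZIP factor that acts with abscisic acid in seeds, rose by 2.62 ± 0.06 and had the largest change of 23 bZIP probe sets, of which 7 rose and 7 fell.

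Aldehyde dehydrogenases were mixed, with 4 of 9 aldehyde and stress-linked dehydrogenases higher, 3 lower and 2 not called, and a median change of 0.18. ALDH7B4, an aldehyde dehydrogenase known from drought and salt stress, had 4.41, 4.36 and 4.25 with dexamethasone, against -0.24, -0.05 and 0.15 with water, a change of 4.38 ± 0.10 (adjusted p = 3.9e-13), while its change in wild-type leaves was 0.41. ALDH10A9 and ALDH10A8, which oxidise amino-aldehydes, rose by 1.23 ± 0.06 and 1.11 ± 0.07. ALDH2C4, which makes ferulic and sinapic acid, fell by 0.74 ± 0.07. Of 6 probe sets for nitrogen, amino acid and proline metabolism 5 rose and 1 fell. Among them DELTA-OAT, an ornithine aminotransferase on a route to proline and glutamate, rose by 2.29 ± 0.08.

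Sugar transporters split within families. Of 15 SWEET probe sets, which encode passive sugar carriers, 5 rose, 4 fell and 6 were not called. Over all probe sets 23.3% rose and 24.6% fell, so calls in both directions are no particular trait of this family. SWEET4 had 3.27, 2.95 and 2.51 with dexamethasone, against -0.04, 0.17 and 0.16 with water, a change of 2.81 ± 0.14 (adjusted p = 4.6e-10), and SWEET1 rose by 1.37 ± 0.11. SWEET13, a sucrose exporter, had -2.63, -2.33 and -2.52, against 0.29, 0.22 and 0.54 with water, a change of -2.84 ± 0.09 (adjusted p = 7.8e-12). SWEET13 thus moved against SAG29, also a sucrose exporter, and against the wild type, where it rose by 1.10 (adjusted p = 2.8e-06). SWEET11, the phloem-loading exporter, rose by 0.51 ± 0.06. The vacuolar carriers SWEET17 and SWEET2 fell by 2.03 ± 0.12 and 1.25 ± 0.07. TMT1, which pumps sugar into the vacuole, rose by 3.19 ± 0.10, and SFP2, a sugar transporter of the ERD6-like family, fell by 2.25 ± 0.08. SWEET1, SWEET2 and SWEET17 were named after their values were seen.

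Starch-degrading enzymes rose, and a sucrose synthesis gene fell. Of 8 probe sets for sucrose, starch and trehalose metabolism, 6 rose and 1 fell, with a median change of 0.64. DPE1, a plastid enzyme that rearranges maltotriose, rose by 2.08 ± 0.17 with values of 2.06, 1.38 and 2.25, against -0.10, -0.30 and -0.14 with water. PWD, which phosphorylates starch before breakdown, rose by 1.62 ± 0.09 on 1 probe set and 0.47 ± 0.14 on the other. The alpha-amylase gene AMY1 rose by 0.81 ± 0.10. ATSPS4F, a sucrose phosphate synthase, had -1.95, -1.93 and -1.69, against 0.11, -0.01 and 0.01 with water, a change of -1.90 ± 0.09. AKINBETA1, a subunit of the energy-sensing kinase SnRK1 named after its value was seen, fell by 1.87 ± 0.14 in CPR5-C leaves and by 1.25 in wild-type leaves.

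Genes for burning amino acids and lipids rose together by small amounts. Of 13 probe sets for branched-chain amino acid breakdown and acetyl-CoA supply, a list drawn up after the values were seen, 12 rose and 0 fell, with a median of 0.85. IVD, the isovaleryl-CoA dehydrogenase of leucine breakdown, had 1.2, 1.03 and 1.09, against -0.20, -0.15 and 0.15 with water, a change of 1.17 ± 0.10. ETFBETA and ETFALPHA, which carry its electrons towards the respiratory chain, rose by 1.06 ± 0.08 and 0.85 ± 0.08, and MCCA, the next leucine enzyme's biotin subunit, by 0.66 ± 0.10. ACLB-1 of cytosolic ATP-citrate lyase rose by 1.23 ± 0.07, and ALDH6B2, a valine-breakdown dehydrogenase, by 0.99 ± 0.08. In fat breakdown, the oil body lipase SDP1 rose by 1.62 ± 0.10 while it fell by 0.52 in wild-type leaves, and AIM1 of peroxisomal beta-oxidation rose by 1.47 ± 0.07. The list of 4 fat breakdown and peroxisome probe sets had 3 rises, and ICL of the glyoxylate cycle changed by -0.07 ± 0.07 (adjusted p = 0.44). In the mitochondrial membrane, NDB2, an alternative NADH dehydrogenase, rose by 1.93 ± 0.09. Its list did not rise together: of 5 alternative NAD(P)H dehydrogenase probe sets 1 rose, 1 fell and 3 were not called, with a median of 0.01. Of 23 probe sets encoded in the mitochondrial genome, which cover 16 genes, 16 rose and 1 fell. Their median was 0.71, or 0.60 with 1 probe set per gene. ACLB-1, ETFALPHA, ETFBETA and NDB2 were named after their values were seen.

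Recycling machinery showed 1 member of a family against the rest. Of 9 ATG8 probe sets, whose proteins coat autophagosomes, 6 rose, 2 were not called and only ATG8E fell. ATG8D had 1.2, 1.39 and 1.31, against -0.16, -0.23 and -0.19 with water, a change of 1.50 ± 0.08 (adjusted p = 1.8e-09), and APG8A rose by 1.40 ± 0.10. ATG8E had -2.10, -1.96 and -2.16, against -0.08, 0.05 and 0.35 with water, a change of -2.18 ± 0.12 (adjusted p = 9.8e-10), and fell by 0.86 in wild-type leaves. Its neighbour AT2G45180 fell by 2.67 ± 0.28. Among vacuolar processing enzymes, proteases that mature vacuolar proteins, BETA-VPE rose by 1.44 ± 0.14 and GAMMA-VPE fell by 1.24 ± 0.10, while the other 2 were not called. Of 29 serine carboxypeptidase-like genes 8 rose and 7 fell (51.7% called, against 47.9% of all probe sets), led by SCPL49 at 2.75 ± 0.07. Of 10 subtilases 3 rose and 0 fell (30.0% called), led by ATSBT5.2 at 2.46 ± 0.11. These last 2 families and their leading members were chosen after the values were seen.

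Secretory pathway genes mostly rose where they were called. Of 29 probe sets for vesicle traffic and syntaxins, 17 rose and 3 fell, with a median of 0.25. VPS20.1, part of the ESCRT-III complex that sorts membrane proteins for the vacuole, had 1.80, 1.48 and 1.69, against -0.25, -0.02 and 0.00 with water, a change of 1.75 ± 0.09. SNF7.1 of the same complex rose by 0.81 ± 0.08, and VPS2.2 fell by 0.93 ± 0.12. RAB6A, a small GTPase of the Golgi, rose by 1.22 ± 0.08. Of 13 probe sets for endoplasmic reticulum chaperones and stress factors 8 rose and 2 fell. BZIP17, BZIP28 and BZIP60, the membrane-bound factors that report misfolded proteins, rose by 1.04 ± 0.07, 0.70 ± 0.07 and 0.62 ± 0.08. Of the paralogous J-proteins of the translocon, ATERDJ2A rose by 0.93 ± 0.06 and ATERDJ2B fell by 0.63 ± 0.11. The vacuolar proton pump subunits VHA-A1 and VHA-A2 rose by 0.77 ± 0.08 and 0.74 ± 0.06.

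**Figure D3:**
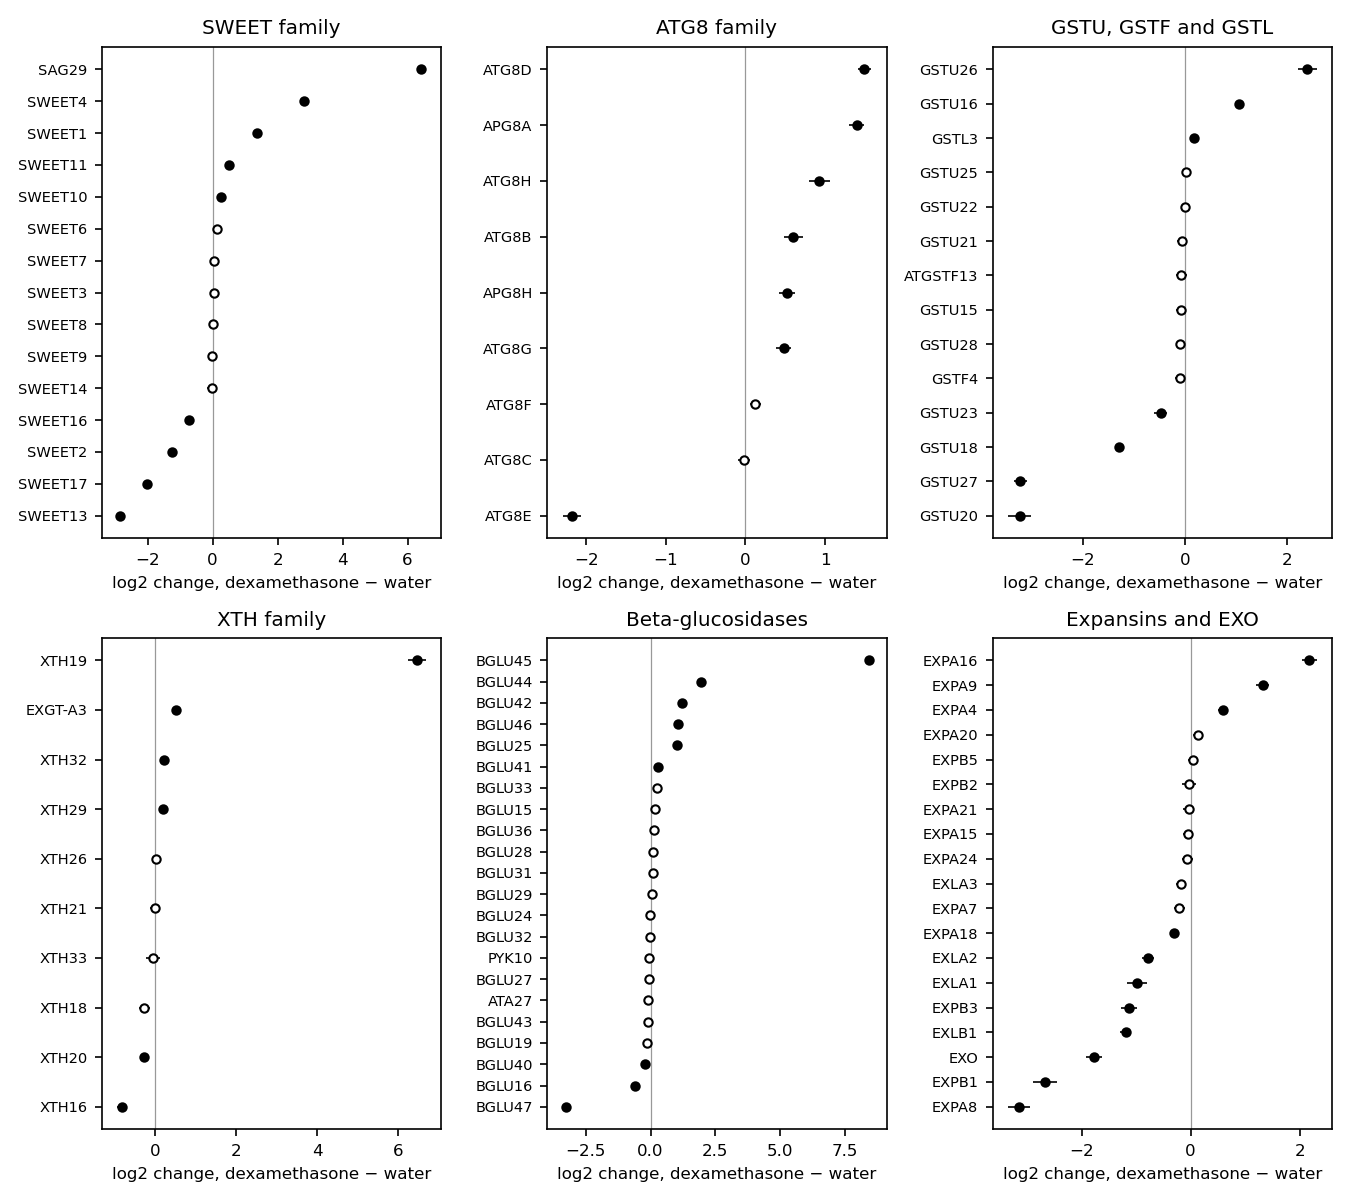
Log2 change in CPR5-C leaves with dexamethasone against water for each named probe set of 6 gene families (y axis: gene; x axis: log2 change with standard error); filled points passed adjusted p under 0.05 and open points did not. SAG29, XTH19, GSTU26 and BGLU45 lie far to the right of most family members, and ATG8E, SWEET13, GSTU20, GSTU27, BGLU47 and EXPA8 far to the left.

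Cell wall genes moved in both directions, with single members far from their families. Of 22 beta-glucosidase probe sets 6 rose and 3 fell (40.9% called, against 47.9% of all probe sets). BGLU47, a close relative of BGLU45, had -2.67, -2.58 and -2.92, against 0.28, 0.77 and 0.58 with water, a change of -3.27 ± 0.13 (adjusted p = 4.2e-11), opposite to BGLU45. BGLU46, which lies next to BGLU45, rose by 1.04 ± 0.16, and BGLU44 rose by 1.95 ± 0.08. Of 10 xyloglucan endotransglucosylase probe sets 4 rose and 2 fell (60% called). XTH18, next to XTH19 on the chromosome, changed by -0.26 ± 0.14 (adjusted p = 0.15), and XTH16 fell by 0.83 ± 0.11, beside -0.81 in wild-type leaves. BGLU46 and XTH18 were named after their values were seen.

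Expansins, which loosen walls in growth, fell more often than they rose, 8 against 3 of 20 probe sets (55% called, against 47.9% of all). Their median of -0.12 became 0.29 under spike scaling. EXPA8 had -2.75, -3.14 and -3.69, against 0.03, 0.03 and -0.21 with water, a change of -3.15 ± 0.20 (adjusted p = 5.3e-09). EXPB1 fell by 2.67 ± 0.22. EXPA16 rose by 2.18 ± 0.13 and EXPA9, named after its value was seen, by 1.32 ± 0.12. EXO, a brassinosteroid-induced growth gene kept in this list, fell by 1.77 ± 0.15, but fell further in wild-type leaves, by 3.19. Of 14 cellulose and hemicellulose synthesis probe sets 5 rose and 5 fell (71.4% called). The mannan synthase-like CSLA03 had -2.98, -2.56 and -2.87, against 0.24, 0.14 and 0.06 with water. Its change was -2.95 ± 0.11, beside -1.22 in wild-type leaves. CSLC04, which makes the xyloglucan backbone, fell by 0.83 ± 0.08 and CSLD2, known from root hairs, rose by 0.81 ± 0.07. The TBL family, which holds acetyltransferases of wall polysaccharides, was chosen after the values were seen. In it 4 of 24 probe sets rose and 11 fell (62.5% called), with TBL37 at -2.77 ± 0.15 and TBL28 at -2.57 ± 0.08.

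Nuclear genes for assembly of the photosynthetic complexes and for the chloroplast NADH dehydrogenase-like complex fell without exception in the lists examined. Of 10 probe sets for photosystem and cytochrome assembly factors 0 rose and 10 fell, and of 9 for the chloroplast NADH dehydrogenase-like complex and its CRR factors 0 rose and 9 fell. The median of each list was -0.87 and remained negative at -0.46 under spike scaling. NdhN, a subunit of that complex, had -2.10, -2.41 and -2.29, against 0.03, 0.04 and 0.06 with water, a change of -2.31 ± 0.08 (adjusted p = 1.1e-11). NdhL fell by 2.15 ± 0.08, CRR21, which edits a subunit's transcript, by 1.35 ± 0.10, CYTC6A, a cytochrome of the thylakoid lumen, by 1.74 ± 0.08, HCF101, which inserts the iron-sulphur clusters of photosystem I, by 1.16 ± 0.06, and LPA19, which matures a core protein of photosystem II, by 1.10 ± 0.07. Both lists were drawn up and these genes named after the values were seen.

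The nuclear light reaction list had a smaller median change. The lists above were drawn up after the values were seen and this one was not. How far that choice made the difference in size was not tested. Of 13 nuclear light reaction probe sets 2 rose and 11 fell, with a median of -0.37 that became 0.04 under spike scaling. LHCB4.3, a minor antenna protein, had -1.24, -1.40 and -1.62, against 0.20, 0.29 and -0.16 with water, a change of -1.53 ± 0.13; its paralogue LHCB4.2 fell by 0.65 ± 0.06. AT1G52220 (CURT1C), which curves thylakoid edges, fell by 0.85 ± 0.06. Of 69 probe sets encoded in the plastid genome 0 rose and 50 fell, with a median of -0.61 and of -0.20 under spike scaling. SBPASE of the Calvin cycle fell by 0.62 ± 0.06. Plastid upkeep genes named after their values were seen fell too: the chaperonin Cpn60beta2 by 1.25 ± 0.09, the redox enzyme NTRC by 1.18 ± 0.07 and the deformylase PDF1B by 1.04 ± 0.06. FTSZ2-2, a plastid division protein, fell by 1.07 ± 0.07, but its list was mixed. Of 5 plastid division, import and protease probe sets 1 rose, 2 fell and 2 were not called, with a median of -0.01.

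Chlorophyll synthesis had 1 exception. Of 11 probe sets 1 rose and 6 fell, with a median of -0.27 that became 0.14 under spike scaling. CHLM, a methyltransferase of the magnesium branch, had -1.46, -1.58 and -1.50, against -0.02, -0.04 and -0.01 with water, a change of -1.49 ± 0.06 (adjusted p = 4.0e-11), and CHLI2, a magnesium chelatase subunit, fell by 0.94 ± 0.07. PORB, a light-dependent protochlorophyllide reductase, had 1.02, 1.15 and 1.33, against -0.46, -0.30 and -0.21 with water, a change of 1.49 ± 0.11 (adjusted p = 2.0e-08), whereas it fell by 1.13 in wild-type leaves.

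Methionine-derived glucosinolates, sulphur-rich defence compounds of the cabbage family, had mostly lower transcripts. Of 5 probe sets 4 fell and 1 rose, with a median of -1.60. BCAT4, the first enzyme of methionine chain elongation, had -3.17, -2.50 and -5.28, against 0.55, 0.46 and 0.74 with water, a change of -4.24 ± 0.46 (adjusted p = 1.8e-06). Replicate 3 lay far below the other dexamethasone arrays, and all 3 lay below water. UGT74B1, a glucosyltransferase of the core pathway, fell by 1.60 ± 0.09 and rose by 0.50 in wild-type leaves; AT2G31790 fell by 2.01 ± 0.08 and rose by 0.39. The transporter gene GTR1 fell by 0.76 ± 0.06. APS3, an ATP sulphurylase that activates sulphate, fell by 2.22 ± 0.08. The neighbouring genes MSRB5 and MSRB6, for repair of oxidised methionine, changed by -2.65 ± 0.12 and -1.99 ± 0.15. Of 5 methionine sulfoxide reductase probe sets these 2 fell, 1 rose and 2 were not called. Of APS3, MSRB5 and MSRB6 only MSRB5 came from the rule for named genes.

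Single detoxification and redox genes had large changes in families called about as often as all probe sets. Of 14 glutathione transferase probe sets 3 rose and 4 fell (50.0% called, against 47.9% of all probe sets). GSTU20 had -2.60, -2.49 and -3.74, against 0.17, 0.29 and 0.44 with water, a change of -3.24 ± 0.23, and GSTU27 fell by 3.23 ± 0.12. GSTU26 had 2.15, 1.83 and 2.79, against -0.23, -0.02 and -0.21 with water, a change of 2.41 ± 0.18. ATMDAR2, which regenerates ascorbate, rose by 2.44 ± 0.10 and by 0.55 in wild-type leaves. CCS, the copper chaperone of superoxide dismutase, fell by 1.33 ± 0.15. Of 51 UDP-glycosyltransferase probe sets 14 rose and 13 fell (52.9% called), from -1.60 for UGT74B1 to 1.84 for UGT84A3, which glucosylates hydroxycinnamic acids. In the CYP71B group CYP71B26 rose by 2.06 ± 0.09 and CYP71B36 fell by 2.52 ± 0.08. WSD1, a wax ester synthase, rose by 2.15 ± 0.15, and AT5G61590 (DEWAX), a repressor of wax synthesis genes, fell by 3.46 ± 0.08; both moved the same way in wild-type leaves, by 1.03 and -1.49.

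**Figure D4:**
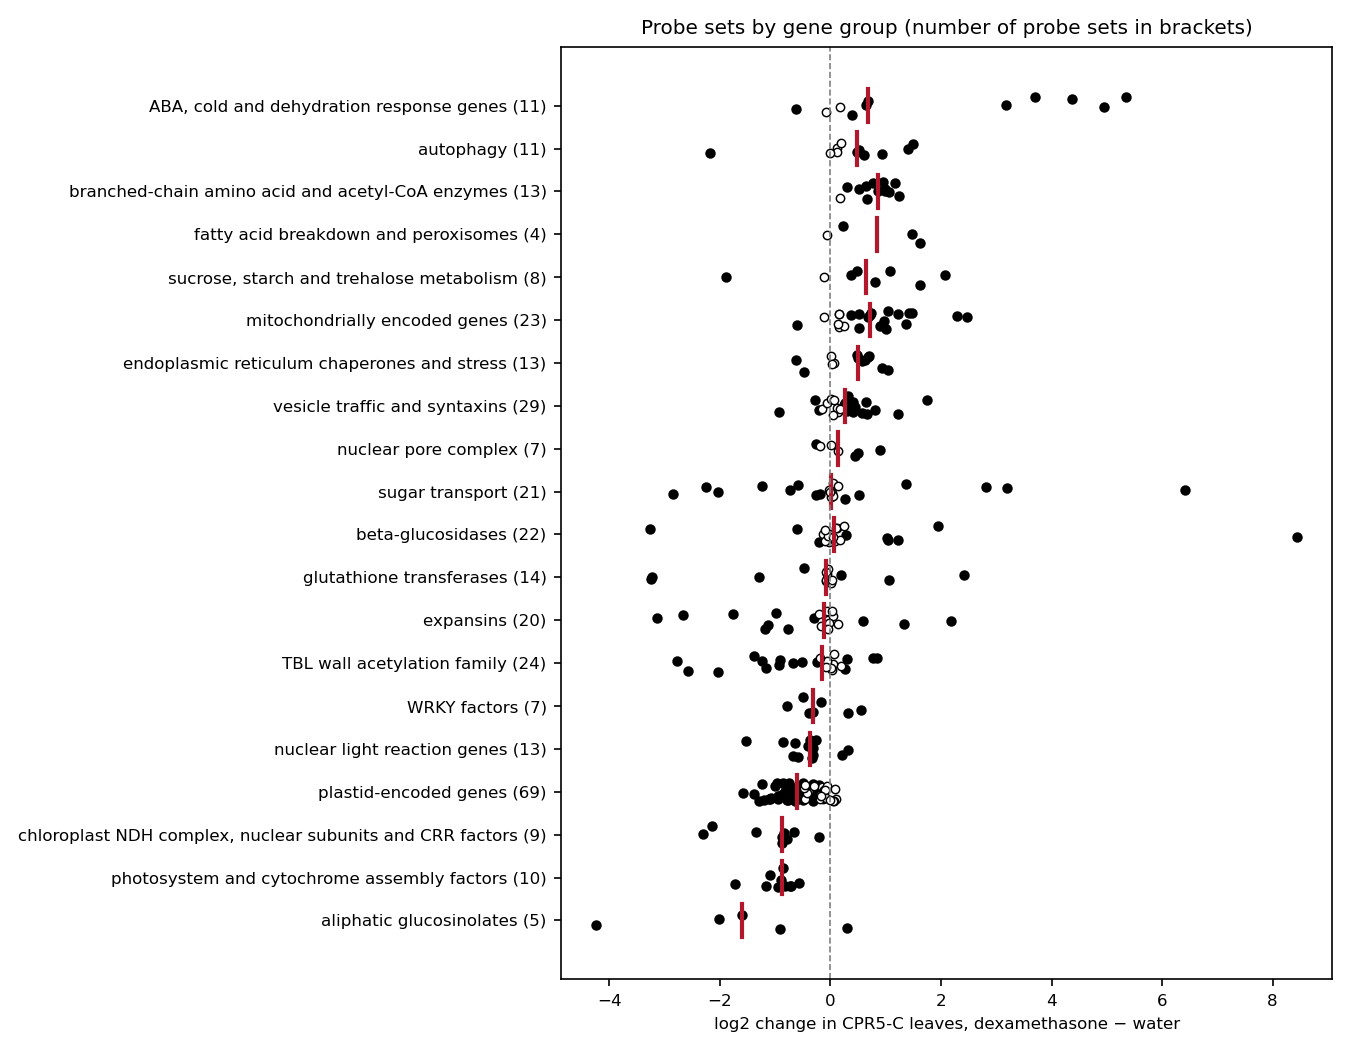
Log2 change (x axis) of every probe set in 20 gene groups, with dexamethasone against water in CPR5-C leaves; each point is a probe set, filled where adjusted p was under 0.05, the vertical tick is the group's median and the dashed line is the median of all probe sets, -0.02. The assembly factor and NDH lists lie wholly to the left, and 12 of 13 branched-chain and acetyl-CoA probe sets are filled points on the right.

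In the hormone lists described here 21.1% of auxin, 33.3% of cytokinin, 42.9% of jasmonate and 100% of gibberellin probe sets were called. The share over all probe sets was 47.9%, and lists of 4 to 19 probe sets do not rank the pathways. Of 19 auxin probe sets 3 rose and 1 fell. IAA29, an Aux/IAA repressor that is itself induced by auxin, had 2.83, 3.30 and 3.38, against -0.45, -0.48 and 0.13 with water, a change of 3.43 ± 0.19 (adjusted p = 1.2e-09). WES1, which conjugates auxin to amino acids, rose by 2.06 ± 0.12, while HAT2, an auxin-inducible homeobox gene, fell by 2.03 ± 0.09. In the cytokinin list 0 of 6 rose and 2 fell. ARR15, a response regulator that cytokinin induces and that feeds back on it, had -2.61, -2.97 and -3.12, against 0.22, -0.10 and 0.00 with water, a change of -2.94 ± 0.12 (adjusted p = 8.8e-11), beside -0.80 in wild-type leaves. All 4 gibberellin probe sets were called, 3 higher and 1 lower. The receptors split, with GID1B at 0.91 ± 0.13, GID1A at 0.66 ± 0.10 and GID1C at -0.53 ± 0.11. Of 7 jasmonate probe sets 0 rose and 3 fell. JMT, which makes methyl jasmonate, fell by 2.48 ± 0.09 but rose by 0.53 in wild-type leaves, and the thionin THI2.2 fell by 2.82 ± 0.12. PDF1.2, the defensin often used to report jasmonate and ethylene signalling, had 0.06, -0.46 and 2.93 with dexamethasone against 0.02, -0.42 and -0.38 with water. A single array carried that difference, which was not called (adjusted p = 0.14). CLE44, which encodes a peptide that keeps vascular stem cells dividing and was named after its value was seen, rose by 2.47 ± 0.09.

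Regulators of growth and iron changed as well. BHLH101, a factor of the iron deficiency response, had -3.03, -3.12 and -3.26, against 0.07, -0.53 and -0.07 with water, a change of -2.96 ± 0.15 (adjusted p = 5.0e-10), and was the largest fall in a list of 12 bHLH and PIF probe sets, of which 3 rose and 6 fell. Under quantile normalization its change was -0.81 and was not called (adjusted p = 0.18). UPB1, a bHLH repressor of peroxidase genes in roots that is outside that list, rose by 3.11 ± 0.14. In the list of ERF and RAP2 factors 0 of 3 rose and 3 fell, with TINY2 at -1.37 ± 0.09, opposite to 0.89 in wild-type leaves. Of 5 guard cell and stomatal lineage probe sets 0 rose and 3 fell. Along with STOMAGEN, AT1G22690 from that list fell by 3.06 ± 0.12, and CHX20, a guard cell cation exchanger outside that list, fell by 1.37 ± 0.07. TRY, a repressor of trichome fate, had -2.25, -2.03 and -2.51, against 0.15, 0.08 and 0.13 with water, a change of -2.38 ± 0.10 (adjusted p = 6.6e-11). The clock gene GI rose by 2.40 ± 0.10, beside 0.65 in wild-type leaves.

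Few immune genes could be named, and they did not move as a class. Of 6 pattern-triggered immunity probe sets 1 rose and 3 fell. BIK1, a kinase beneath the pattern receptors, had 1.65, 1.49 and 1.86, against 0.18, -0.03 and -0.18 with water, a change of 1.67 ± 0.10 (adjusted p = 5.0e-09). The receptor gene EFR, named after its value was seen, changed by 0.07 ± 0.09 (adjusted p = 0.58). The chitinase gene CHI rose by 1.90 ± 0.25 with uneven arrays, at 1.49, 2.54 and 1.23 against -0.13, -0.12 and -0.20. Of 7 WRKY probe sets 2 rose and 5 fell, by at most 0.79, the value for WRKY22. WRKY53 fell by 0.50 ± 0.14, less than in wild-type leaves, where it fell by 1.87. SAG101, which works with EDS1 in immunity, rose by 0.77 ± 0.11, and it was the only call among 5 salicylic and pipecolic acid probe sets. That list held no probe set for the marker genes ICS1, PR1, PR2 or PR5, so it does not show how salicylic acid defence moved. THE1, a receptor kinase that monitors the wall, fell by 1.43 ± 0.12 in CPR5-C leaves and by 1.24 in wild-type leaves.

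In the nuclear pore and cell cycle lists some members were called, none with a change as large as 1. Of 7 nuclear pore probe sets 3 rose, 1 fell and 3 were not called, with AT1G59660 highest at 0.90 ± 0.12, and the exportin gene XPO1B rose by 1.07 ± 0.07. Of 4 cell cycle probe sets 3 were not called, and only SIM, an inhibitor of cyclin-dependent kinases that drives endoreduplication in trichomes, rose, by 0.65 ± 0.12. Of 7 histone probe sets 1 rose and 2 fell, and of 50 for flowering and development regulators 3 rose and 11 fell, none by more than 0.71. AGO7, which binds a microRNA in the timing of leaf phase change, fell by 1.40 ± 0.10 and rose by 0.65 in wild-type leaves.

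Some of these calls ended under another scaling of the arrays, with each direction kept. Quantile normalization of the centred values, which by construction narrows the dexamethasone arrays, ended 15. Of these WRKY53 and WRKY22 had changes there of -0.74 and -0.83, no smaller than the -0.50 and -0.79 given above. The others were smaller, at 0.51 for BETA-VPE, 0.47 for BGLU46, 0.42 for GID1B, 0.36 for AT1G59660, 0.48 for SAG101 and 0.23 for SIM among the rises. Among the falls they were -0.11 for HVA22C, -0.26 for ATERDJ2B, -0.26 for CHLI2, -0.54 for CRR21, -0.58 for MSRB6, -1.22 for EXPB1 and -0.81 for BHLH101. Scaling to the spikes ended 7, with changes of -0.09 for WRKY53, -0.11 for GID1C, -0.21 for HVA22C, -0.21 for SBPASE, -0.22 for ATERDJ2B, -0.24 for LHCB4.2 and -0.33 for ALDH2C4.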

How the data were processed

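Transcripts were measured on 12 ATH1 arrays. Per the submitters' processing notes the authors made the deposited log2 values with RMA; no source used here gives its version, settings or log base. In the deposited file every probe set has a median of 0 over the 12 arrays (0 of 22810 beyond 1e-06), so levels and detection were not analysed here. Probe sets were named from the platform annotation and a TAIR10.1 gene table: 13513 had 1 gene, 503 several and 8730 none, and the called shares were 43.4%, 41.9% and 55.2%. Unnamed probe sets were tested but not described. After leaving out 64 control probe sets, limma 3.58.1 in R 4.3.3 fitted 4 group means on all 12 arrays, with 8 residual and 5.79 prior degrees of freedom. Tests were two-sided and Benjamini-Hochberg adjusted over 22746 probe sets within each contrast. The fit was tested on simulated data. The number of arrays limits precision. The labels do not say whether replicates came from separate plantings, so p-values measure only the spread between these samples.

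The gene groups (74 with measured members, and 17 drawn up after values were seen), the rule and the tests were chosen with earlier results of these data known. The rule took the 25 largest rises and falls among called single-gene probe sets without overlap, and the 15 largest of each among genes with a symbol. It also took up to 5 members of each group with the smallest p plus its largest rise and fall. CPR5, PR1, PR2, PR5 and ICS1 were to be given wherever a probe set was named for them, and none is among the genes given. Of 154 named genes 124 follow it and 30 were named after their values were seen, as the text says or, for AT2G44060, AT2G29300, AT2G29320 and AT2G45180, as stated here. A gene with several probe sets is given by the smallest p. Figures were drawn with matplotlib 3.10.9.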

Additional observations from a re-analysis of the deposited data

Results flagged for a closer look

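The change with dexamethasone in CPR5-C leaves minus that in wild-type leaves was tested for every probe set, and 8755 of 22746 (38.5%) were called by limma. The wild-type water arrays enter each of these differences. The centred values within an array had an SD over all probe sets of 0.19 to 0.23 there, against 0.14 to 0.16 on the wild-type dexamethasone arrays. This SD does not measure the spread between replicates. For some genes the water groups of the genotypes stood apart. EXO had 2.79, 2.73 and 2.91 in wild-type water leaves, against 0.64, 0.94 and 0.28 in CPR5-C water leaves. For others they overlapped, as for NdhL at -0.02, 0.02 and 0.06 against 0.13, -0.07 and 0.05. How far such a baseline difference enters the wild-type changes and the genotype differences was not tested. Of the 154 genes named in the report the difference was called for 146. These genes were chosen by their change in CPR5-C leaves, which is part of the difference, or after their values were seen. The share called among them is therefore no added support. The values that follow are the differences on the log2 scale.

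Opposite responses of the genotypes, called in both, gave 5.34 for AT5G50915, 4.17 for COR47, 2.62 for PORB and 2.14 for SDP1 where CPR5-C leaves rose, and -4.46 for AT1G68600, -3.94 for SWEET13, -3.01 for JMT, -2.27 for TINY2, -2.10 for UGT74B1, -2.40 for AT2G31790, -2.05 for AGO7, -1.75 for GAMMA-VPE, -1.06 for ALDH2C4 and -1.65 for CHX20 where they fell. Wild-type leaves fell further than CPR5-C leaves, or fell alone, for 3 genes, with differences of 1.42 for EXO, 1.37 for WRKY53 and 1.13 for XTH18. Both genotypes moved the same way, CPR5-C leaves further, for 3.97 for ALDH7B4, 1.89 for ATMDAR2, 1.75 for GI, 1.12 for WSD1, 1.50 for NDB2, 1.71 for CYP71B26, 1.27 for UGT84A3, 1.0 for ALDH10A9 and 0.76 for BZIP17 among rises, and for -3.90 for AT5G48490, -1.97 for AT5G61590, -2.45 for AT1G22690, -1.73 for CSLA03, -2.14 for ARR15, -2.07 for THI2.2, -2.21 for AT2G29300, -1.32 for ATG8E, -0.71 for CCS and -0.62 for AKINBETA1 among falls.

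For the other rises the wild-type change was not called. Among the largest and the water stress genes the difference was 8.41 for BGLU45, 6.68 for AT4G23680, 6.15 for XTH19, 6.26 for SAG29, 5.53 for LTI30, 4.76 for AT1G10585, 5.15 for AT1G16850, 4.88 for MYBC1 and 5.16 for COR15B. It was 4.88 for AT3G58060, 5.19 for LCR69, 5.08 for AT1G15010, 4.29 for COR15A, 4.11 for AT3G02480, 3.0 for LEA4-5, 2.72 for EEL and 0.69 for AT2G44060. In carbon and amino acid use it was 3.25 for TMT1, 2.85 for SWEET4, 1.05 for SWEET1, 0.35 for SWEET11, 2.01 for DPE1, 1.42 for PWD, 0.78 for AMY1 and 2.13 for DELTA-OAT, and 1.07 for IVD, 0.66 for MCCA, 0.65 for ETFALPHA, 0.97 for ETFBETA, 0.94 for ALDH6B2, 0.92 for ALDH10A8, 1.23 for ACLB-1 and 1.32 for AIM1. In recycling and secretion it was 2.54 for SCPL49, 2.35 for ATSBT5.2, 1.22 for ATG8D, 1.23 for APG8A, 1.15 for BETA-VPE, 1.90 for VPS20.1, 0.61 for SNF7.1, 1.11 for RAB6A, 0.79 for ATERDJ2A, 0.57 for BZIP28, 0.79 for BZIP60, 0.72 for VHA-A1 and 0.69 for VHA-A2. In walls, hormones, defence and the nucleus it was 2.35 for GSTU26, 2.25 for EXPA16, 1.41 for EXPA9, 1.88 for BGLU44, 1.0 for BGLU46, 0.99 for CSLD2, 4.05 for IAA29, 2.31 for WES1, 0.59 for GID1A, 0.56 for GID1B, 2.33 for CLE44 and 3.59 for UPB1, and 1.42 for CHI, 1.62 for BIK1, 0.78 for SAG101, 1.09 for XPO1B, 0.73 for AT1G59660 and 0.70 for SIM.

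For the other falls the wild-type change was not called either. The differences were -4.69 for AT1G13650, -4.60 for BCAT4, -3.56 for STOMAGEN, -3.18 for AT2G29290, -2.83 for AT2G29310, -2.76 for AT2G29320, -2.53 for AT2G45180, -3.65 for BGLU47, -3.36 for GSTU20 and -3.32 for GSTU27. In walls and growth they were -2.70 for EXPA8, -2.21 for EXPB1, -3.05 for TBL37, -2.66 for TBL28, -2.75 for BHLH101, -2.10 for HAT2, -2.67 for TRY, -0.77 for GID1C and -0.49 for HVA22C. In metabolism and transport they were -2.74 for MSRB5, -1.80 for MSRB6, -2.38 for APS3, -0.91 for GTR1, -2.11 for SWEET17, -1.11 for SWEET2, -2.13 for SFP2, -1.92 for ATSPS4F, -2.58 for CYP71B36, -0.76 for VPS2.2 and -0.41 for ATERDJ2B. In chloroplasts they were -2.40 for NdhN, -2.17 for NdhL, -1.54 for CRR21, -1.62 for CYTC6A, -1.20 for HCF101, -1.13 for LPA19, -1.70 for LHCB4.3, -0.59 for LHCB4.2 and -0.73 for AT1G52220, and -1.34 for CHLM, -0.75 for CHLI2, -0.63 for SBPASE, -1.03 for FTSZ2-2, -1.39 for Cpn60beta2, -1.16 for NTRC and -0.96 for PDF1B. Among named genes with rises the 3 largest differences were those of BGLU45, AT4G23680 and SAG29, and among falls those of AT1G13650, BCAT4 and AT1G68600.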

How the results depend on the processing

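Of the 154 named genes the CPR5-C change kept its direction and its side of the threshold for 154 when only the 6 CPR5-C arrays, 9 arrays without wild-type water, robust variances, array weights, median centring, single-gene probe sets or the stricter threshold of 0.01 were used. Quantile normalization, which by construction gives the wider dexamethasone arrays the distribution of the others, lowered the calls to 5557, with 2879 higher and 2678 lower, ended 15 named calls, and lowered calls of the genotype difference to 3538, with 1634 higher and 1904 lower. Scaling to the spikes gave 13356 higher and 1856 lower calls in CPR5-C leaves (87.8% higher, against 48.7% without it), 987 calls in wild-type leaves with 131 higher, and 15511 for the genotype difference, 14467 higher and 1044 lower; it ended 7 named calls and added those of PDF1.2 and EFR. Of 91 group medians it moved 90 by more than the spread between replicates.

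Testing fewer probe sets, those with 1 gene, gave 5798 calls in CPR5-C leaves (2862 higher, 2936 lower), 1012 in wild-type leaves (535 higher, 477 lower) and 4555 for the difference (2167 higher, 2388 lower). Requiring a change of at least 1 left 2441 (1211 higher, 1230 lower), 205 (33 higher, 172 lower) and 2363 (1180 higher, 1183 lower). The threshold of 0.01 left 1152 calls in wild-type leaves, 543 of them higher. Leaving out 1 CPR5-C array at a time gave 10085 to 10280 calls in CPR5-C leaves, 4871 to 5022 higher and 5097 to 5322 lower, and 8245 to 8497 for the difference; PDF1.2 was called without dexamethasone replicate 2 (1.75), and no other named call changed.

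Same-numbered CPR5-C arrays did not deviate together (correlations of -0.09, -0.08 and -0.05), and those of wild-type arrays were 0.36, -0.10 and -0.15, so not every pair was above 0.1 and the numbers were not taken as pairs. With the replicate block as a fixed term there were 10671 calls, 5196 higher and 5475 lower, and with a random block 10673; no named CPR5-C call changed, and the genotype difference of 1 named gene, ATERDJ2B, was no longer called (-0.41, adjusted p = 0.066). Promoter motifs were not run, since no promoter sequences were used here.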
